A study of Mus musculus with 6 samples.

Results

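The miRNAs described here come from a run of hairpins on the mouse X chromosome that reaches from miR-465a to miR-743a and includes miR-881. They were picked by name, from a list drawn up with earlier results of these data known. The list held both arms of miR-463, miR-465a, miR-465b, miR-465c, miR-465d, miR-470, miR-471, miR-741, miR-742, miR-743a, miR-743b, miR-871, miR-878, miR-880, miR-881, miR-883a and miR-883b. Of the 685 mature miRNA entries measured, 32 belonged to this cluster, 15 from the 5p arm and 17 from the 3p arm of their hairpins. For miR-880 and miR-881 the 3p arm was the only one listed, and the other 15 hairpin names had both arms.

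The cells were N2a, a mouse neuroblastoma line. All 6 samples had first been differentiated for 96 h with 10 µM retinoic acid in DMEM holding 2% serum, and were then kept for 24 h with 5 µM RSL3 (3 libraries) or with the same concentration of its solvent DMSO (3 libraries). RSL3 inactivates the lipid peroxide reductase GPX4 and is used to start ferroptosis, an iron-dependent form of cell death. Small RNAs were sequenced from total RNA, and no group without retinoic acid was among these samples. Nothing in the labels ties the replicates to separate cultures. The p-values below are therefore set against the spread of these libraries alone, and that spread may be technical.

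A miRNA hairpin is cut by Drosha and Dicer into a short duplex whose arms, named 5p and 3p, can each be loaded into an Argonaute protein. The loaded arm pairs with target mRNAs mainly through its seed (bases 2 to 8), so that miRNAs with the same seed share many targets. The cluster lies between the genes Slitrk2 and Fmr1, arose in mammals by repeated duplication, changes fast in evolution, and is best known from the testis. Members have been reported to target the mRNA of Fmr1, the gene silenced in fragile X syndrome.

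The 17 hairpin names stood for 19 hairpins, because miR-465b and miR-465c each have a pair of copies. In GRCm38.p6 the hairpins filled chrX:66776757-66839125, a stretch of 62.4 kb, and all lay on the minus strand. GENCODE M21 placed no protein-coding or long noncoding gene over the stretch and 1 pseudogene inside it. Slitrk2 was 115 kb away on one side and Fmr1 1839 kb away on the other. In the direction of transcription the hairpins followed each other as miR-465a, miR-465b-2, miR-465c-2, miR-465b-1, miR-465c-1, miR-465d, miR-470, miR-871, miR-881, miR-878, miR-880, miR-463, miR-741, miR-471, miR-883b, miR-883a, miR-742, miR-743b and miR-743a. The miR-465 hairpins were evenly spaced, with gaps of 3.17 to 3.24 kb, whereas miR-881 and miR-878 were separated by 0.358 kb.

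All 32 entries had a mature sequence in RefSeq (GRCm38.p6), against 554 of all 685 entries. They held 30 different sequences and 24 different seeds. The most abundant members with a seed of their own are printed first, 5′ to 3′ with the seed in capitals, because they carried most of the signal.
miR-881-3p: aACUGUGUcuuuucugaauaga
miR-470-5p: uUCUUGGAcuggcacuggugagu
miR-871-3p: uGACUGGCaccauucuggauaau
miR-878-5p: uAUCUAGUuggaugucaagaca
miR-741-3p: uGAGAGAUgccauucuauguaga

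The miR-465 family is printed because near-identical entries within it had very different levels. The seed AUUUAGA was common to the 5p arms of all 4 family members. Counted from the 5′ end of miR-465c-5p, miR-465b-5p differed by C13U, miR-465a-5p by G14A and C20G, and miR-465d-5p by C13U, G14A and C20G. The 3p arms of miR-465a, miR-465b and miR-465c had 1 and the same sequence. That of miR-465d begins 1 base earlier, which gives it another seed, and differed by A16G and G21A over the 21 bases compared from the first base of miR-465a-3p.
miR-465c-5p: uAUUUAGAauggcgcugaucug
miR-465b-5p: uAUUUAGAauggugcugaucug
miR-465a-5p: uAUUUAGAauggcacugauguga
miR-465d-5p: uAUUUAGAaugguacugauguga
miR-465a-3p, miR-465b-3p and miR-465c-3p: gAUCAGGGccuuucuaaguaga
miR-465d-3p: uGAUCAGGgccuuucugaguaa

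The remaining shared seeds are shown for the duplicated hairpins miR-743a and miR-743b, for miR-883a and miR-883b, and for miR-871. Against miR-743b-3p, miR-743a-3p carried U9C, U12A and A18G, all outside the seed. Against miR-743b-5p, miR-743a-5p carried G2A, C9U, U15C, C17U and A18G, and G2A lies in the seed, so that miR-743a-5p shares its seed with miR-871-5p and not with miR-743b-5p. From miR-743a-5p to miR-871-5p the differences were G11A and U17A, and from miR-883a-3p to miR-883b-3p G12U.
miR-743b-3p: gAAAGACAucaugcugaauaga
miR-743a-3p: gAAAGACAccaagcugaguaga
miR-743b-5p: uGUUCAGAcugguguccauca
miR-743a-5p: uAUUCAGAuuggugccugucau
miR-871-5p: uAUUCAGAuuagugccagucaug
miR-883a-3p: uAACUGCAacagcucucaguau
miR-883b-3p: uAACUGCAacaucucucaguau

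Among the 24 seeds, 1 was also found in a listed entry outside the cluster: that of miR-743b-5p, shared with miR-6948-5p. The ends of the sequences were alike as well. All 15 member 5p arms began with U, against 44.3% of 230 other 5p entries, and 8 of the 17 member 3p arms did, against 36.6% of 232 other 3p entries. Of the 17 member 3p arms, 9 ended in UAGA, a match searched on the mature strand only and chosen after the sequences had been read. It was found in 0 of 232 other 3p entries, in 0 of 15 member 5p arms and in 0 of 230 other 5p entries. The 9 were miR-881-3p, miR-741-3p, miR-743b-3p, miR-743a-3p, the identical 3p arms of miR-465a, miR-465b and miR-465c, and the following pair, and they made up 7 different sequences.
miR-880-3p: uACUCCAUccucucugaguaga
miR-878-3p: gCAUGACAccacacuggguaga

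Levels are given as the deposited signal, the authors' CPM values after library scaling (TMM), in which a single read was worth 0.157 to 0.314. The listed miRNAs of a library held 3406276 to 6058006 reads, and no member was at 0 in any library, the fewest reads being 27 for miR-465d-5p. A level compared between miRNAs also depends on how well each RNA is captured in the library, which was not measured. Of the miRNAs that mark neurons, miR-7a-5p averaged 203375 over the 6 libraries, miR-9-5p 3749 and miR-124-3p, the most abundant miRNA of mature neurons, 164. All 14 listed entries of that list summed to 198361 to 272979 in DMSO and 169801 to 218245 in RSL3 libraries, most of it miR-7a-5p. Of the male germ line list, 3 entries were listed, and their sum was 134 to 159 in DMSO and 152 to 218 in RSL3 libraries, most of it miR-34c-5p. Each of the lists marking blood, muscle, liver, pluripotent cells and epithelia summed on its own to at most 462.5 in any library, while those of endothelium, fibroblasts and smooth muscle summed to 36245 to 39508, most of it miR-143-3p. In limma, 0 entries of these lists passed the adjusted threshold of 0.05 between the groups.

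The cluster held a large share of the miRNA signal: 34.2%, 29.96% and 29.7% in DMSO libraries 1 to 3, and 30.3%, 40.1% and 37.2% in RSL3 libraries 1 to 3. The means were 31.3% ± 2.496 (SD, n = 3) and 35.9% ± 5.04 (SD, n = 3), and the groups overlapped, RSL3 library 1 lying below DMSO library 1. With the identical 3p arms of the miR-465 family counted once, the means were 31.0% and 35.7%. In total RNA from a culture, fewer cells of a type and less RNA per cell cannot be told apart. The summed signal of the cluster was 43.6 times that of 44 other X-linked entries. These came from a list written from general knowledge, which was not checked for completeness, and the ratio depends on that list. Its highest entry, miR-92a-3p, had 2338 to 3357.

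A single miRNA made up most of this. miR-881-3p, from the hairpin at chrX:66801944-66802021, was the most abundant of all 685 entries, with 198606, 163655 and 173628 in DMSO and 178610, 302102 and 239160 in RSL3 libraries 1 to 3. RSL3 libraries 2 and 3 were above every DMSO library, while RSL3 library 1 lay within the DMSO range. It alone held 16.8% to 28.3% of the signal of a library and 56.6% to 70.5% of that of the cluster. Without it, the share of the cluster was 13.0% ± 0.213 (SD, n = 3) in DMSO and 12.5% ± 0.745 (SD, n = 3) in RSL3 libraries.

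The next member was miR-465c-5p, the 3rd most abundant entry, with 37115, 38564 and 42726 in DMSO and 38938, 38439 and 41668 in RSL3 libraries. miR-470-5p, reported to target the pluripotency gene Nanog in embryonic stem cells, ranked 10th, with 23646, 22721 and 24508 in DMSO and 22165, 21612 and 23255 in RSL3 libraries. In both, the 6 libraries lay close together and the groups overlapped.

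miR-871-3p ranked 13th, with 15673, 12202 and 20655 in DMSO and 13499, 14924 and 12546 in RSL3 libraries. miR-878-5p ranked 16th, with 10575, 8809 and 9451 against 9197, 11336 and 11127. miR-741-3p ranked 17th, with 9125, 9840 and 7400 against 9766, 10135 and 12275. DMSO library 3 was the highest of all 6 for miR-871-3p and the lowest for miR-741-3p, and the groups overlapped for all 3 miRNAs.

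Below them stood both duplicated pairs. miR-743b-3p had 4461, 4528 and 4095 in DMSO and 4727, 5455 and 6041 in RSL3 libraries, so that its groups did not overlap. miR-883a-3p had 3634, 5323 and 4498 against 4112, 2951 and 3721. For the 5p arm of miR-743b the values were 2773, 2159 and 3183 against 2754, 3272 and 3177, with the groups overlapping as in miR-883a-3p. miR-743a-5p had 2466, 2268 and 3214 against 2243, 2671 and 2412, DMSO library 3 being the highest. From the same hairpin, miR-743a-3p, reported to target the mRNA of the mitochondrial malate dehydrogenase in neuronal cells, averaged 1880 over the 6 libraries.

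**Figure D1:**
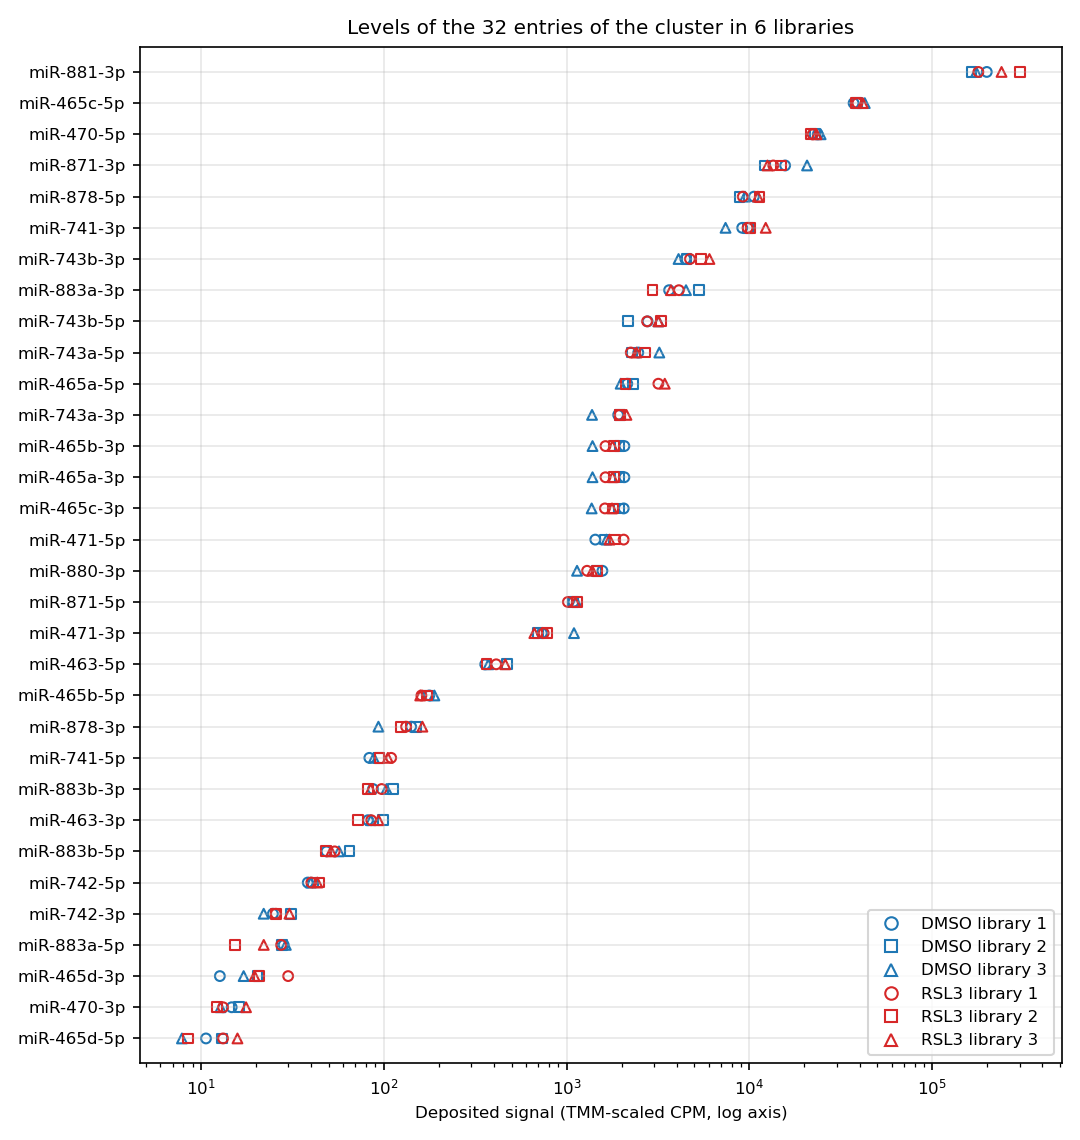
Deposited signal (CPM after TMM scaling, log axis) of the 32 entries of the cluster, in order of their mean, with 1 symbol per library (circles, squares and triangles for libraries 1 to 3, blue for DMSO and red for RSL3). The entries reach from 11.5 for miR-465d-5p to 209293 for miR-881-3p, and the 6 symbols of each entry cover a small part of that range.

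Mean levels spanned 18158-fold, from 11.5 for miR-465d-5p to 209293 for miR-881-3p. In this range, 5 members had a mean of at least 10000, 13 a mean of 1000 to 10000, 4 a mean of 100 to 1000 and 10 a mean under 100. The 5 highest held 88.1% of the signal of the cluster. Among all entries, 6 members were in the 20 most abundant, 11 in the 50 most abundant, and 29 above the median entry.

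Hairpins next to each other on the map mostly differed in level. Between the 18 adjacent pairs the summed mean of the listed arms (only 3p for miR-881 and miR-880) differed by a median of 20.2-fold. It differed by over 10-fold in 12 pairs and by under 2-fold in 2. The 2 were miR-470 beside miR-871 (1.44-fold) and miR-743b beside miR-743a (1.76-fold). miR-465b and miR-465c enter more than once here, since their copies share 1 entry per arm. Each copy was given the full level, and their repeated pair, at 21.3-fold, lies near the median. The hairpins of miR-881, miR-878 (chrX:66801508-66801585) and miR-880 (chrX:66800530-66800607) follow each other with gaps of 0.358 and 0.900 kb. miR-881-3p was 18.2 to 26.4 times as high as both arms of miR-878 together, and 112 to 204 times as high as miR-880-3p, over the 6 libraries. On the other side, miR-742 summed to 67.8 over both arms and its neighbour miR-883a, 0.320 kb away, to 4065. Of miR-201, miR-509 and miR-547, which also lie between Slitrk2 and Fmr1, miR-547-3p was the only listed entry. Its hairpin lies 1149 kb from the cluster. The level of miR-547-3p was 0.401 to 1.77, close to the 0.470 to 0.941 that 3 reads are worth.

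**Figure D2:**
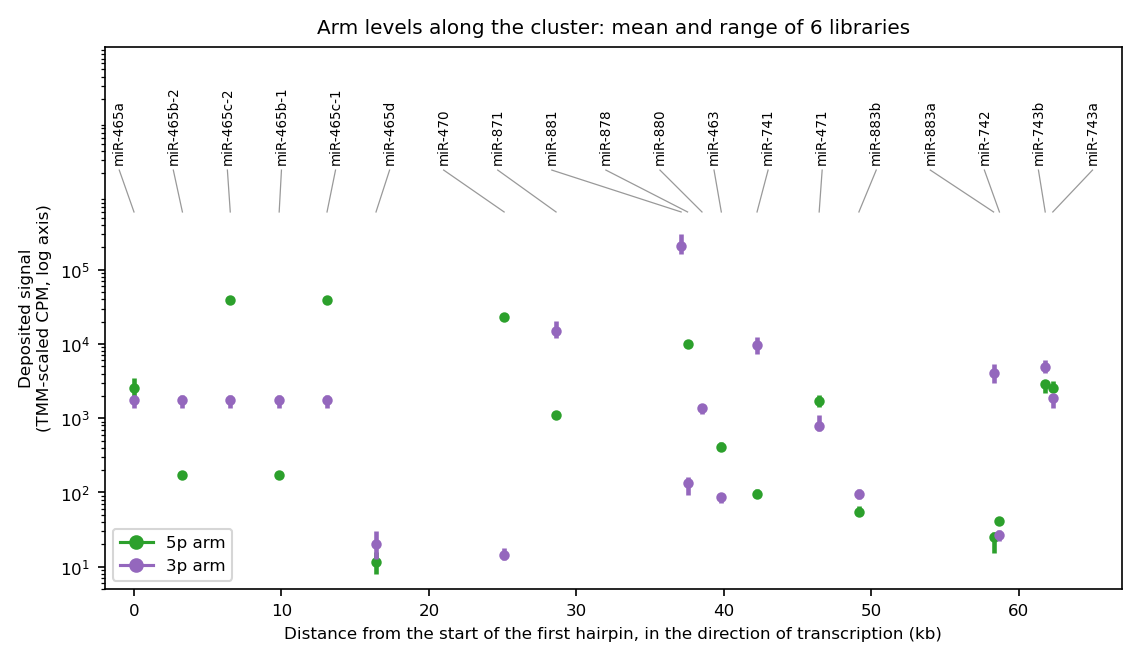
Mean deposited signal (points, log axis) and range over the 6 libraries (bars) of each listed arm, placed by the distance of its hairpin from the first hairpin in the direction of transcription (kb). Entries of a hairpin with more than 1 copy are drawn at each copy. Green 5p and purple 3p points change places along the 62.4 kb, and miR-881-3p stands above all others beside miR-878 and miR-880.

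Within the miR-465 family the 5p level was almost wholly that of miR-465c. Of the summed 5p signal of the 4 members, miR-465c-5p held 92.01% to 95.16%, miR-465a-5p 4.399% to 7.602%, miR-465b-5p 0.349% to 0.450% and miR-465d-5p 0.0175% to 0.0350%. A single base, C13U, separates miR-465b-5p (mean 172) from miR-465c-5p (39575), and each has 2 hairpin copies. The same change separates miR-465d-5p (11.5) from miR-465a-5p (2525). Whether reads of an abundant entry with that base misread were counted in the rarer entry was not tested. The levels of miR-465b-5p and miR-465d-5p and the arm share of miR-465d carry this limit. So do miR-883b-3p beside miR-883a-3p and the arm share of miR-883b. On the 3p side the entries could not be told apart: the recovered reads of miR-465a-3p and miR-465b-3p were identical in every library (5772 to 13209), and miR-465c-3p had 34 to 104 fewer (0.589% to 1.08%). These 3 entries therefore hold nearly the same reads, and their summed mean of 5300 counts such reads more than once.

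Seeds gathered the levels in the same uneven way. Entries with the seed AUUUAGA summed to 42283 on the mean of 6 libraries, those with AAAGACA (both miR-743 3p arms) to 6764, those with AACUGCA (both miR-883 3p arms) to 4135 and those with AUUCAGA (miR-743a-5p and miR-871-5p) to 3642. miR-881-3p shared its seed, ACUGUGU, with no other listed entry of known sequence. Within the AACUGCA pair, miR-883a-3p was 36.0 to 47.3 times as high as miR-883b-3p, although 1 base separates them. Within the AAAGACA pair, miR-743a-3p had 0.336 to 0.431 times the level of miR-743b-3p.

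Arm dominance was stable in direction and varied widely in degree. Among the 15 hairpin names with both arms, the 5p arm was higher in 8 and the 3p arm in 7, and the same arm was higher in all 6 libraries for 15 of 15. Over other hairpin names, 90 of 172 (52.3%) had the higher level on the 5p arm. How many of those 172 kept the same arm higher in all 6 libraries was not counted. The 15 of 15 is therefore no trait particular to the cluster. The minor arm held under 10% of the hairpin in 7 member names, against 87 of 172 others (50.6%), and at least 30% in 7, against 36 of 172 others (20.9%). No test was made of that difference. Without miR-465a, miR-465b and miR-465c, whose 3p entries hold nearly the same reads, the 5p arm was higher in 6 of 12 names, the same arm in all 6 libraries in 12 of 12, and the minor arm held under 10% in 5 and at least 30% in 6.

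The 5p-dominant hairpins with a clear minor arm were miR-470, miR-878, miR-465c and miR-463. miR-470 was the most one-sided, with 22985 on the 5p arm and 14.5 on the 3p arm, a 1588-fold difference, and a 5p share of 99.92% to 99.95% over the 6 libraries. miR-878 had 10082 against 134 (75.3-fold; 5p share 98.3% to 99.0%). miR-465c had a 5p share of 94.8% to 96.9% on its own, and 95.01% to 97.01% when the 5p signal of miR-465a, miR-465b and miR-465c was set against their shared 3p sequence. For miR-463 the 5p share was 81.4% to 83.5%, a narrow range at 407 against 86.2.

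Hairpins dominated by the 3p arm included miR-883a, with 25.0 on the 5p arm and 4040 on the 3p arm (161-fold; 5p share 0.518% to 0.774%), and miR-741, with 95.9 and 9757 (102-fold; 5p share 0.850% to 1.18%). miR-871 followed with 1097 and 14916 (13.6-fold; 5p share 5.19% to 8.19%). For miR-465b the 5p share was 7.89% to 12.0%, but its 3p value is the one shared with miR-465a and miR-465c, so that this share and the 50.9% to 66.1% of miR-465a are no balance of a single hairpin.

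Both arms were of like level in the remaining hairpins. The 5p share was 35.5% to 37.8% in miR-883b, 29.0% to 45.6% in miR-465d, 32.3% to 43.7% in miR-743b, 53.2% to 69.997% in miR-743a, 56.8% to 64.4% in miR-742 and 60.1% to 73.2% in miR-471. Paralogs could thus differ: the 3p arm was dominant in miR-743b and the 5p arm in miR-743a. The 3p arm was dominant 161-fold in miR-883a and 1.75-fold in miR-883b. The share of miR-883b, like that of miR-465d, carries the limit of misread bases given above. In miR-743b the 3p arm averaged 4884 and the 5p arm 2886, and in miR-743a the 3p arm averaged 1880 and the 5p arm 2546.

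**Figure D3:**
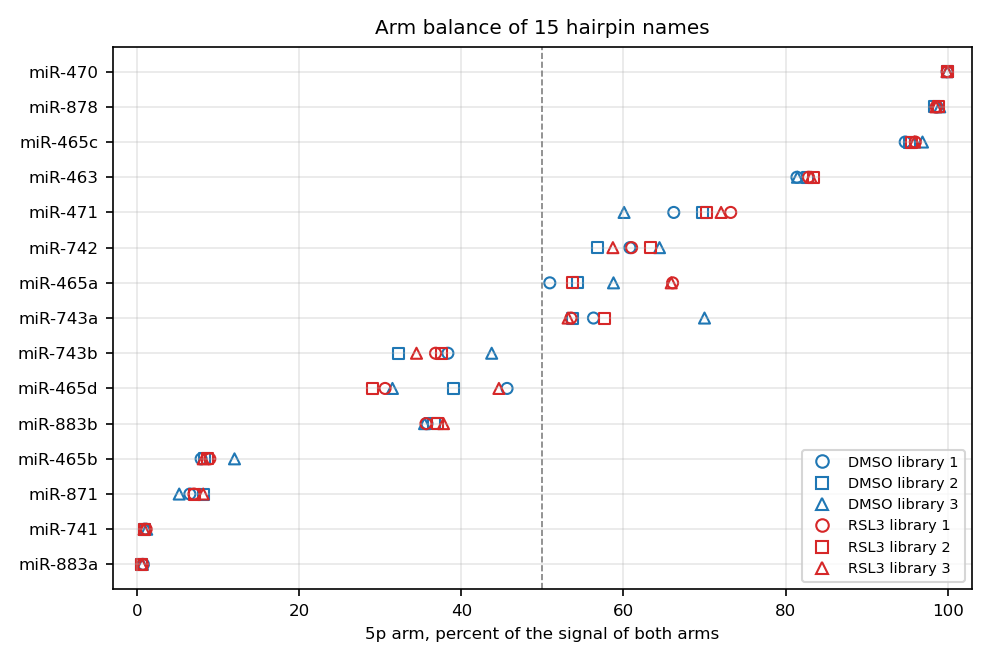
Share of the 5p arm in the signal of both arms (percent) for the 15 hairpin names with both arms listed, 1 symbol per library, blue for DMSO and red for RSL3, with the dashed line at equal arms. No hairpin crosses the line, from 99.9% in miR-470 to under 1% in miR-883a, and the libraries spread most in miR-743a, miR-465d, miR-465a and miR-471.

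Whether RSL3 altered these miRNAs was tested with limma on log2(signal + 1) over the 666 entries with a signal of at least 1 in at least 3 libraries, all 32 members among them. Fold changes are RSL3 over DMSO on that scale, which understates the change of low entries. With Benjamini-Hochberg adjustment over all entries, 0 of 32 members passed 0.05 in either direction, against 0.751% of all entries (0.601% higher and 0.15% lower). By edgeR on the recovered reads 0 of 32 passed (0.901% of all entries), and by DESeq2 0 of 32 (8.31% of the 433 entries given an adjusted p). At an unadjusted limma p under 0.05 there were 3 members (9.38%), against 17.3% of all entries. All 3 were higher in RSL3, against 8.86% of all entries higher and 8.41% lower at that p. Both count tools also had 3 members below that unadjusted value, against 17% of all entries in edgeR and 14.3% in DESeq2: miR-465a-5p, miR-743b-3p and miR-881-3p.

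The members as a whole were centred near 0. Their median log2 fold change was 0.01, beside 0.00 over all entries tested, and 17 of 32 were positive (53.1%), beside 50.2% of all, with 14 to 22 of 32 positive under 3 other scalings of the libraries. The median size of the change was 0.14 for members and 0.21 for all entries, and members ran from -0.41 for miR-883a-5p to 0.46 for miR-465d-3p. Groups of libraries did not overlap in 5 members (15.6%, against 24.3% of all entries). These were miR-743b-3p, miR-471-5p and miR-741-5p, higher in RSL3, and miR-883a-5p and miR-465b-5p, lower in RSL3.

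Of the 3 members with the smallest limma p among those higher in RSL3, miR-465a-5p had 2147, 2312 and 1975 in DMSO and 3175, 2097 and 3443 in RSL3 libraries. RSL3 library 2 lay within the DMSO range, and both others were above it. Its groups differed by 0.41 on the log2 scale (SE 0.16; limma adjusted p = 0.218). Without RSL3 library 3 it was 0.27. Without RSL3 library 2 it was 0.63 with an adjusted p of 0.0091, the 1 setting of those tried in which a member was called, and over all settings the adjusted p ran from 0.0091 to 0.567.

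miR-743b-3p, with the values given above, differed by 0.30 on the same scale (SE 0.12; limma adjusted p = 0.218). miR-471-5p, reported to restrain autophagy in the Sertoli cells of the testis, had 1435, 1613 and 1651 in DMSO and 2050, 1839 and 1716 in RSL3 libraries. Its groups did not overlap, and its log2 fold change was 0.25 (SE 0.12; limma adjusted p = 0.273).

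On the lower side, miR-883a-5p had 28.4, 27.7 and 29.1 in DMSO and 27.45, 15.4 and 22.1 in RSL3 libraries, on 49 to 181 reads. Its log2 fold change was -0.41 (SE 0.20; limma adjusted p = 0.311). From the same hairpin, miR-883a-3p had -0.32 (SE 0.16; limma adjusted p = 0.317). miR-883b-3p, with the same seed, had 87.3, 112.5 and 103.5 in DMSO and 97.3, 81.9 and 84.8 in RSL3 libraries and a log2 fold change of -0.19 (SE 0.14; limma adjusted p = 0.509). In RSL3 library 2 these 3 entries were at their lowest of all 6 libraries, and without it the log2 fold changes were -0.20 for miR-883a-5p, -0.18 for miR-883a-3p and -0.14 for miR-883b-3p. Without DMSO library 2, miR-883a-3p was at -0.18 and miR-883b-3p at -0.11, and without DMSO library 1 miR-883b-3p was at -0.30.

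For the most abundant members the interval bounds what the data allow. miR-881-3p was 1.32-fold higher in RSL3, with an unadjusted 95% interval of 0.973 to 1.78-fold and a limma adjusted p of 0.323. Without RSL3 library 1 its log2 fold change was 0.59 and without RSL3 library 2 it was 0.22, against 0.40 with all libraries, and its adjusted p ran from 0.0807 to 0.637 over all settings. miR-465c-5p was at 1.01-fold (0.825 to 1.23-fold), a direction that turned under 1 other scaling, and miR-470-5p at 0.946-fold (0.788 to 1.14-fold). The log2 fold changes of miR-871-3p, miR-878-5p, miR-741-3p, miR-743b-5p and miR-743a-5p were -0.21, 0.13, 0.29, 0.20 and -0.10, with limma adjusted p-values of 0.541, 0.617, 0.310, 0.509 and 0.722. These values moved with single libraries. miR-871-3p was at -0.40 without DMSO library 2 and -0.02 without DMSO library 3, miR-743b-5p at 0.04 and 0.32, and miR-743a-5p at -0.21 and 0.04. miR-741-3p was at 0.17 without DMSO library 3 and 0.19 without RSL3 library 3, and miR-878-5p ran from 0.07 without DMSO library 2 to 0.23 without RSL3 library 1.

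**Figure D4:**
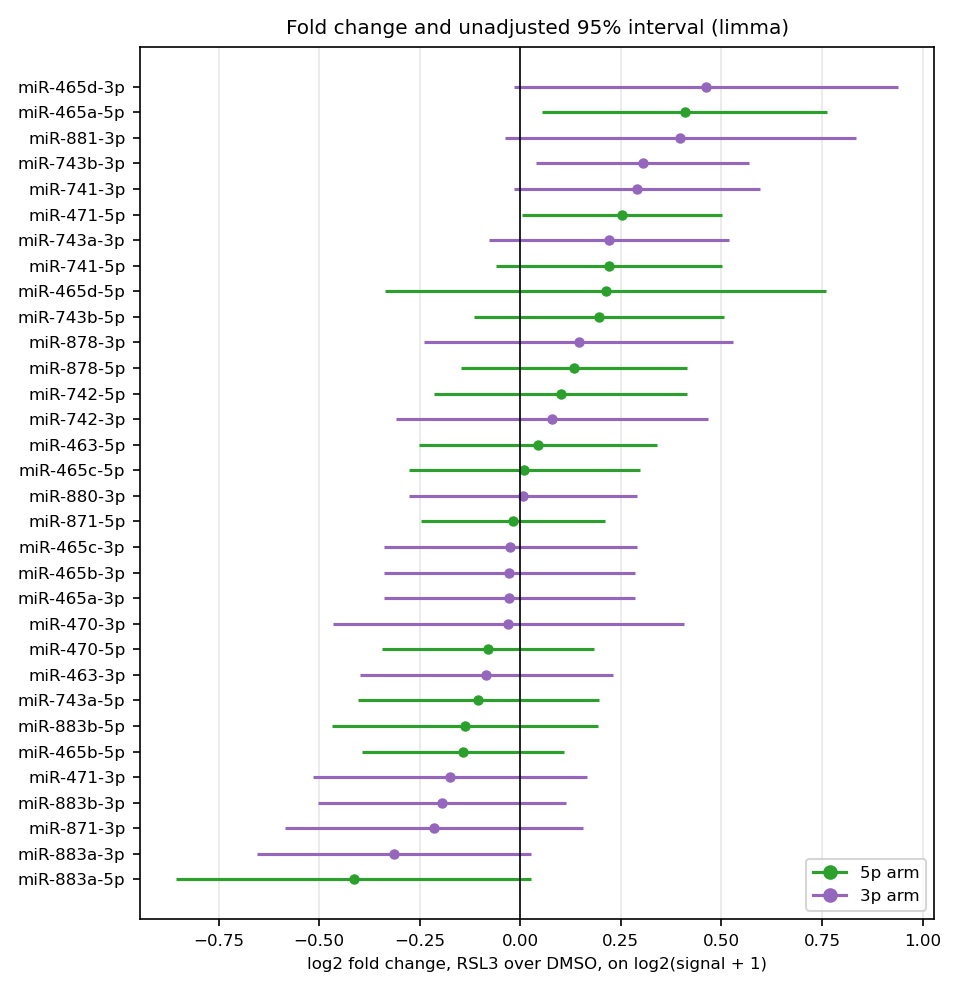
log2 fold change of each member, RSL3 over DMSO on the log2(signal + 1) scale (points), with its unadjusted 95% interval from limma (bars), green for 5p and purple for 3p arms. The points run from -0.41 for miR-883a-5p to 0.46 for miR-465d-3p, and the bars of miR-465a-5p, miR-743b-3p and miR-471-5p lie wholly above 0.

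The balance of the arms was tested in the same way, as log2 of 5p over 3p, over 182 hairpins with both arms past the filter. By limma, 0 of the 15 member hairpins passed an adjusted 0.05, against 1.65% of all hairpins, and 1 had an unadjusted p under 0.05, against 22.5%. That hairpin was miR-471, whose 5p share was 66.2%, 69.8% and 60.1% in DMSO and 73.2%, 70.2% and 72.0% in RSL3 libraries. The change was 0.43 (SE 0.19; limma adjusted p = 0.202), with no overlap of the groups. The groups were also apart in miR-463, at 81.4% to 82.7% in DMSO and 82.8% to 83.5% in RSL3 libraries, so that 2 of 15 (13.3%) did not overlap, against 24.2% of all hairpins.

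Members lay both above and below their group means in each of the 6 libraries. For each library the deviation of a member from the mean of its own group was taken on the log2(signal + 1) scale. Members above their group mean numbered 15, 21 and 15 of 32 in DMSO libraries 1 to 3 and 12, 14 and 24 in RSL3 libraries 1 to 3. RSL3 library 3 had 75.0% of members above the mean, beside 46.2% of all 666 entries, with a median deviation of 0.04. DMSO library 2 had 65.6% above, beside 48.5% of all entries, with a median of 0.10, while the medians of the members in the other 4 libraries lay between -0.04 and -0.01. The median SD over replicates was 0.21 in DMSO and 0.13 in RSL3 libraries for members, beside 0.20 and 0.21 for all entries tested, and 0.13 and 0.13 for all entries with a mean of at least 1000.

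In DMSO library 3 the members ran from -0.42 to 0.41, and in RSL3 library 2 from -0.47 to 0.37. The highest deviations in DMSO library 3 were those of miR-471-3p (0.41), miR-871-3p (0.39), miR-743a-5p (0.29) and miR-743b-5p (0.25). The lowest were those of miR-878-3p (-0.42), the miR-465 3p entries (-0.36), miR-465d-5p (-0.35), miR-743a-3p (-0.33), miR-880-3p (-0.27) and miR-741-3p (-0.24). Arms of 1 hairpin went opposite ways in it: miR-743a-5p was 2.33 times its 3p arm there and 1.14 to 1.36 times in the other 5 libraries. In 9 of 15 member hairpins the 5p share was highest of its group in DMSO library 3, against 40.1% of all 182 hairpins. These 9 include miR-465a, miR-465b and miR-465c, whose 3p entries hold nearly the same reads, so they are not 9 separate measurements.

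In DMSO library 3 the low members included every 3p arm with the UAGA end. All 9 entries ending in UAGA were below their group mean in DMSO library 3, with a median deviation of -0.33, and so were 3 of the 8 other member 3p arms (median 0.03) and 5 of 15 member 5p arms (median 0.03). In DMSO library 1, 0 of the 9 were below, beside 7 of 8 other member 3p arms and 10 of 15 member 5p arms. In RSL3 library 1 all 9 were, with a median of -0.09, beside 3 of 8 and 8 of 15. In DMSO library 2, RSL3 library 2 and RSL3 library 3, 1, 3 and 1 of the 9 were below. Deviations within a group sum to 0, so the counts of its libraries are not separate observations. The 9 hold 7 different sequences and share reads within the miR-465 entries, so they are not 9 separate measurements. Outside the cluster, the entries below the mean in DMSO library 3 were 64 ending in A (60.4%), 66 of the 110 ending in G, 53 ending in C (50.5%) and 62 ending in U (33.5%), with medians of -0.05, -0.05, -0.0021 and 0.09. Of the outside entries closest to the UAGA end, those ending in GA were below in 56.1% (median -0.06) and those ending in AGA in 3 of 5. In RSL3 library 1, 0 of these 5 were below. The part of the end base in the pattern of the cluster was not tested.

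**Figure D5:**
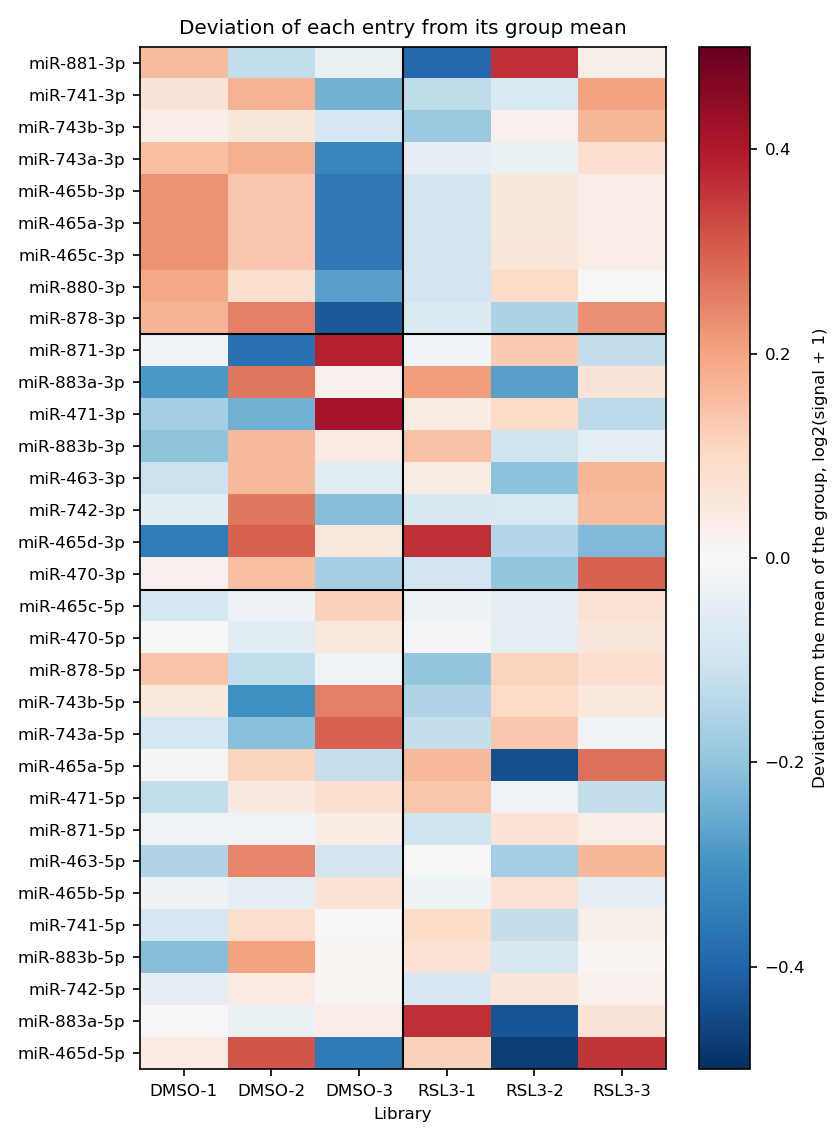
Deviation of each member from the mean of its group on the log2(signal + 1) scale, per library (red above, blue below the mean), with 3p entries ending in UAGA at the top, other 3p entries in the middle and 5p entries at the bottom, each in order of level. All 9 entries at the top are below the mean in DMSO library 3, and the largest member, miR-881-3p, is lowest in RSL3 library 1 and highest in RSL3 library 2.

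miR-881-3p and its map neighbour miR-878-5p deviated with the same sign in all 6 libraries. In DMSO libraries 1 to 3 the deviations were 0.16, -0.12 and -0.04 for miR-881-3p and 0.14, -0.12 and -0.02 for miR-878-5p. In RSL3 libraries they were -0.39, 0.37 and 0.03 for miR-881-3p and -0.19, 0.11 and 0.08 for miR-878-5p, beside -0.03, -0.05 and 0.07 for miR-465c-5p. The other arm, miR-878-3p, had 0.17, 0.25 and -0.42 in DMSO and -0.07, -0.16 and 0.23 in RSL3 libraries. Its sign was opposite to that of miR-881-3p in library 2 of each group. miR-880-3p had the opposite sign in DMSO library 2 and RSL3 library 3. Such sharing was not particular to map neighbours. miR-741-3p and miR-743a-3p, miR-883a-3p and miR-883b-5p, and both arms of miR-463 also shared their sign in all 6 libraries. So did miR-465a-5p and miR-465d-5p, where the limit of misread bases given above applies. How many pairs of members do so was not counted. The ratio of miR-881-3p to miR-878-5p was 18.4 to 18.8 in the 3 DMSO libraries and 19.4, 26.7 and 21.5 in RSL3 libraries 1 to 3. For its part, miR-465c-5p was 1.57 to 1.79 times miR-470-5p over all 6 libraries. miR-465a-5p deviated by 0.16, -0.44 and 0.28 in RSL3 libraries 1 to 3, and its level ran from 0.0462 to 0.0826 times that of miR-465c-5p, whose seed it shares.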

How the data were processed

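Small RNA libraries from 6 samples were analysed, 3 per group. Per the submitters' processing notes, cutadapt, Bowtie and edgeR were used with GRCm38; for versions, settings, miRNA release and multi-mapping reads, the sources used here give nothing. The deposited signal, named CPM by the authors, summed to 949375 to 1068892 per library, not to the fixed total of plain CPM. All values were whole multiples of 1 step per library (100% whole within 0.01), so reads were recovered, and reads times TMM factors (0.936 to 1.05) gave the divisors: the signal is TMM-scaled CPM, while plain CPM had been assumed when the design was written.

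limma 3.58.1 (R 4.3.3) was fitted over all 666 entries with a signal of at least 1 in at least 3 libraries, on log2(signal + 1) with a mean-variance trend, two-sided, with Benjamini-Hochberg adjustment, and likewise over 182 arm ratios. It called 5 entries. edgeR 4.0.16 (quasi-likelihood) on the recovered reads called 6 entries and DESeq2 1.42.0 called 36. The scripts were tested on simulated data. Values in every library are printed for the 10 members with the highest mean, any member past the threshold in limma, edgeR or DESeq2, and the 3 members per direction with the smallest limma p. Arm values are printed for every hairpin with both arms. Mature sequences and hairpin positions are from RefSeq (GRCm38.p6), and genes from GENCODE M21. Members and lists were chosen with earlier results of these data known. The printed intervals are unadjusted limma intervals over the 6 libraries and cover the spread between these libraries only.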

Additional observations from a re-analysis of the deposited data

How the results depend on the processing

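The count of members called stayed at 0 in every setting run except without RSL3 replicate 2, where it was 1 (miR-465a-5p, log2 fold change 0.63, limma adjusted p = 0.0091). Over all entries, the 5 calls became 1 without a trend, 1 with a replicate block, 16 when rescaled without the 5 most abundant entries, 3 when rescaled to entries outside the cluster, 36 in DESeq2 (233 entries had no adjusted p), and 1 to 20 with 1 library left out (20 without RSL3 replicate 1, 19 without RSL3 replicate 2). Over all hairpins, the 3 arm-balance calls became 12 with a pseudocount of 5, 8 with a filter at 10, 5 without a trend, 1 with the replicate block, and 1 to 3 with 1 library left out. No member hairpin was called in any of these. Libraries sharing a number did not deviate together (correlations -0.35, -0.33 and -0.19, and no library correlated best with its own number). Since these are deviations from means of 3 libraries, they cannot exclude a pairing. The main tests used none. The log2 ratio of summed signal, 0.27, was 0.14 to 0.39 with 1 library left out and 0.0072 without miR-881-3p. The difference in share, 4.60 percentage points, was 2.49 to 7.39 and -0.47 respectively; leaving out miR-881-3p was chosen after seeing the data. miR-465c-5p, at 0.01, turned to -0.043 when rescaled without the 5 most abundant entries, and was -0.034 to 0.068 with 1 library left out, negative without DMSO replicate 1, DMSO replicate 2 or RSL3 replicate 3. miR-743a-5p, at -0.10, was -0.21 to 0.043 with 1 library left out, positive without DMSO replicate 3. The cause of these shifts was not tested. Of 266 values for the 14 named members, 260 kept their direction and side of the threshold. Rescaling moved the median of all entries to 0.04, -0.05 and 0.04, and 22, 14 and 22 members were then positive, against 17.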
